A study of Equus caballus with 6 samples.

Results

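Mitochondria make most of a cell's ATP with 5 protein complexes of the inner membrane. Complexes I and II take electrons from NADH and succinate, complex III passes them to cytochrome c, complex IV hands them to oxygen, and complex V, the ATP synthase, uses the proton gradient that builds up on the way. In the testis the need for this pathway changes as germ cells mature, and some complex IV subunits exist as a somatic and a testis isoform. COX6B2 and COX8C are such testis isoforms, with COX6B1 and COX8A as the somatic forms.

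The nuclear-encoded subunits of these complexes were read here as a list of 53 genes, 20 of complex I, 4 of complex II, 6 of complex III, 12 of complex IV and 11 of complex V. A gene was read where the platform annotation gave its symbol, current or older, and no other symbol to a probe. This held for 43 of the 53 genes, against 18278 gene symbols read by such probes in the whole series, and 56 probes carried them. SDHB and UQCRFS1 had no listed probe, and SDHA, NDUFA8, NDUFA9, NDUFS3, UQCRC1, UQCRH, ATP5PO and ATP5MC2 shared theirs with another symbol, so none of these 10 was read.

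The tissue was testicular parenchyma, which holds the seminiferous tubules and the cells between them, of 6 adult stallions. Of these, 3 had received dexamethasone, a synthetic glucocorticoid, at 0.1 mg/kg intravenously and 3 an equal volume of saline. All were kept in the clinic for 10 days before treatment and their testes were taken 12 h after the injection. RNA of each stallion was hybridised to 1 one-colour human CodeLink array, so horse transcripts met human probes, and a low signal does not show a low transcript level. The comparison of the groups asks how testicular transcripts differ after the glucocorticoid, a question the series' title puts to steroid synthesis.

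Each array held 53423 gene probes, of which 22690 to 24755 were above background in the dexamethasone stallions and 23809 to 25537 in the controls. Spots left out for a quality flag counted as not above background, so these counts follow flags as well as signal. Markers of several types of testis cell were present, but not all of those listed. INSL3, LHCGR and STAR of Leydig cells, AMH and FSHR of Sertoli cells, SYCP1, DMC1 and LDHC of spermatocytes, and AKAP4, ODF1 and TNP2 of spermatids were above background on all 6 arrays. The probes of SOX9, PRM2, TNP1, NR5A1 and of 4 of 5 macrophage markers, CD14 among them, were above background on none. The same held for HORMAD1 and TEX101 of spermatocytes, UCHL1 of spermatogonia, KDR of endothelium, and CNN1 and MYH11 of peritubular myoid cells. Of 6 tested Leydig markers, 3 lay higher and 3 lower in the dexamethasone stallions, with a median of -0.04 on the log2 scale and 1 of the lower ones at an unadjusted p under 0.05 in limma's fit. The summed linear intensity of the 3 with complete values ran from 5360 to 5799 against 6080 to 7074 in the controls. Such a sum follows its brightest probe most and leaves out the other tested Leydig markers. All 5 tested spermatocyte markers lay lower, with a median of -0.12 and sums that overlapped, at 6942 to 7679 against 6763 to 8320. Of 6 spermatid markers, 3 lay higher and 3 lower, with a median of 0.00 and overlapping sums of 6315 to 7397 against 6282 to 7690. The part of such shifts in the values below was not tested. In this bulk tissue fewer cells of a type and less RNA per cell cannot be told apart. The 94 control probes printed several times were scaled by the median of the gene probes, not by the quantile normalization used for the differences below. So scaled, they lay higher in the dexamethasone stallions in 92 cases, by a median of 0.09 on the log2 scale and by up to 0.54. The median difference of all tested genes with median scaling was -0.09. The part of that in the differences below was not tested either.

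Values are log2 normalised intensities. They are set side by side only within a probe, since probes differ in how well they bind. Tests were run on probes that exceeded background on 3 or more arrays and had 2 or more usable values in each group. Of the 43 genes read, 23 were tested through 27 probes and 20 were not. At 48.2% the share of member probes tested was close to the 51.6% of all probes with 1 symbol. All 3 genes read in complex III and both in complex II were tested, against 6 of 17 in complex I, 7 of 12 in complex IV and 5 of 9 in complex V.

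**Figure D1:**
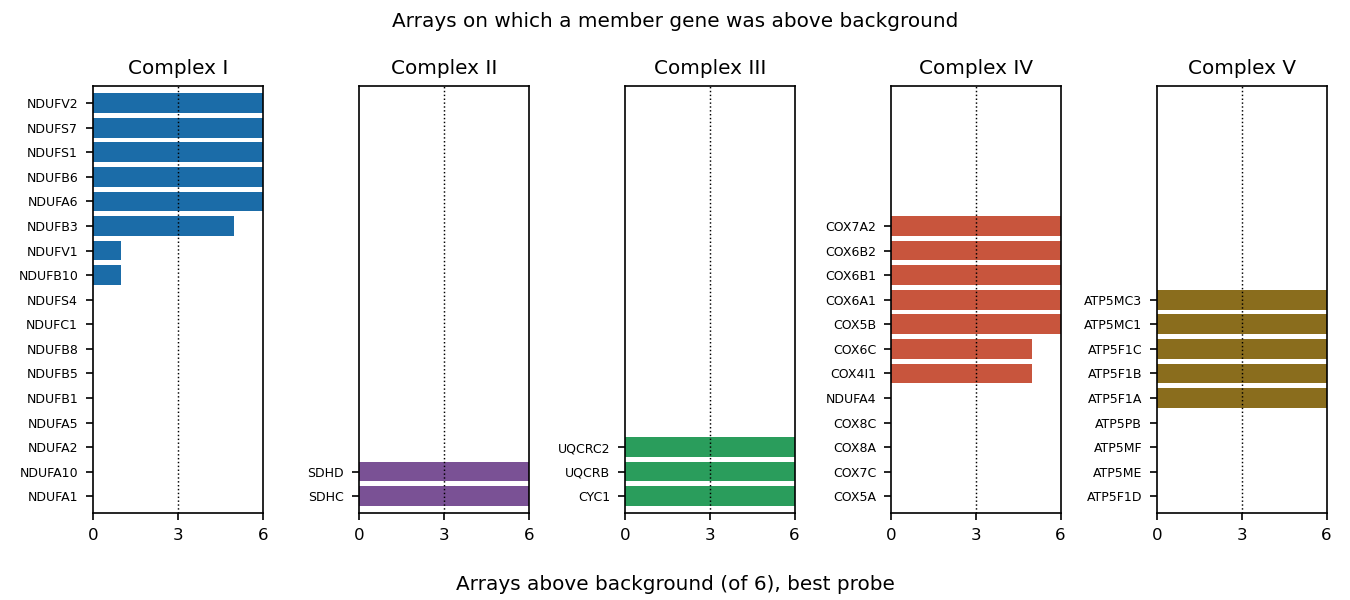
Bars give the number of arrays (of 6) on which each of the 43 genes read was above background with its best probe, by complex. The dotted line marks the minimum of 3 arrays, which 23 genes reached, and genes without a bar were above background on none. A spot left out for its quality flag counts as not above background.

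The untested genes came almost wholly from probes at background. In complex I these were NDUFA1, NDUFA2, NDUFA5, NDUFA10, NDUFB1, NDUFB5, NDUFB8, NDUFC1 and NDUFS4 on 0 arrays, with NDUFB10 on 1 control and NDUFV1, the subunit that binds NADH, on 1 dexamethasone array. In complex IV, COX5A, COX7C, COX8A, COX8C and NDUFA4, a subunit first assigned to complex I, were above background on none. In the ATP synthase, ATP5F1D, ATP5PB, ATP5ME and ATP5MF were above background on none. Of the 3 NDUFA4 probes, 1 had no value on any array. No level or difference can be given for these 20 genes.

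None of the 23 tested genes passed limma's adjusted p of 0.05 over all 24590 probes tested. The background was 1 probe, or 0.00407% of those tested, and no gene by its brightest probe. Each of the 23 had an adjusted p of 0.999. At an unadjusted p under 0.05 there was 1 member, COX6B1, against 3.87% of the 10604 genes tested. Differences of dexamethasone from control ran from -0.22 to 0.27 on the log2 scale, with 9 above 0 and 14 below, where 47.3% of all tested genes lay above 0. Their median was -0.03, beside -0.01 for all tested genes. With median scaling of the arrays it was -0.10, beside -0.09 for all tested genes. With the authors' scaled values it was -0.08, beside -0.07. Differences of single genes under these settings are given below without that common shift taken off. The moderated standard errors ran from 0.08 to 0.29. No 95% interval reached beyond -0.67 or 0.66, although the offset added in background correction compresses differences of dim probes, so these limits need not hold for the transcripts.

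**Figure D2:**
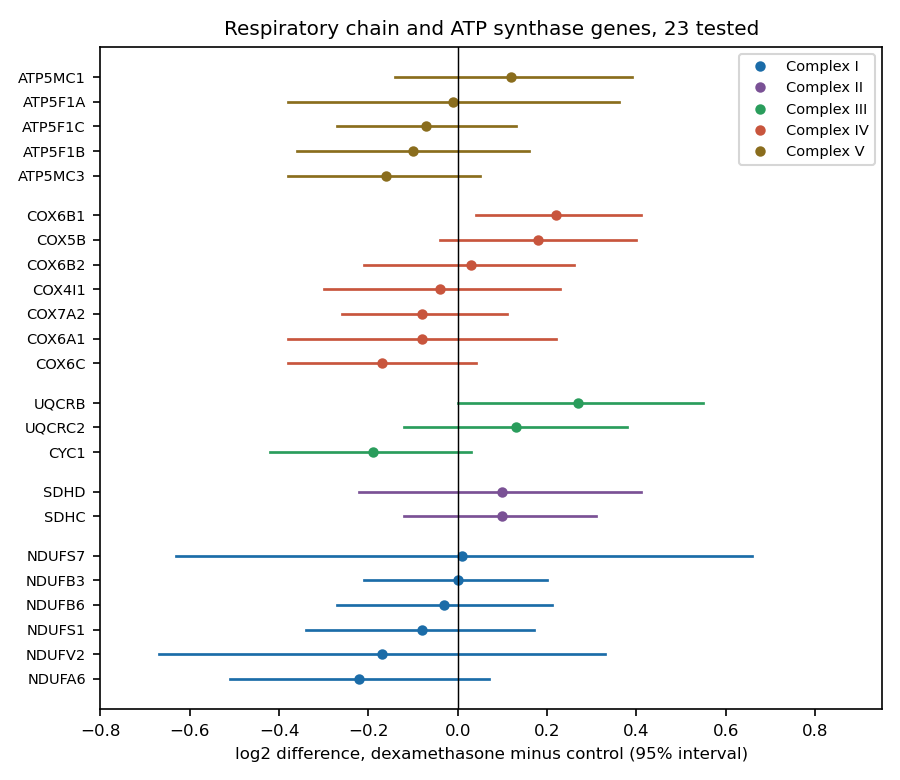
Points give the log2 difference of dexamethasone minus control for the 23 tested genes, coloured by complex, and lines the 95% interval of limma's fit (3 stallions per group). All intervals but that of COX6B1 include 0 at the 2 decimals drawn, and the widest belong to NDUFS7 and NDUFV2.

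By complex, the median difference was -0.06 over 6 genes of complex I, 0.10 over 2 of complex II, 0.13 over 3 of complex III, -0.04 over 7 of complex IV and -0.07 over 5 of complex V. In each complex, stallions of the same group lay further apart than this. With each gene set to its own mean, the median member of complex I was at -0.30, -0.09 and 0.09 in the 3 dexamethasone stallions. In the 3 controls it was at -0.11, 0.08 and 0.10. Over all tested members the median was at -0.13, 0.05 and 0.04 in the dexamethasone stallions and at -0.11, 0.00 and 0.09 in the controls. Over all tested members the first stallion of each group was thus the lowest, and the groups overlapped. The complex III median was 0.00 within the first run of slide numbers and 0.36 within the second, runs that are described further on.

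In complex I, which opens the chain with NADH, 1 tested gene lay above 0 and 5 below. NDUFA6, an accessory subunit, was at 6.99, 7.51 and 7.41 in the dexamethasone stallions and at 7.52, 7.60 and 7.45 in the controls. Only the first dexamethasone stallion stood clearly low, and the groups overlapped. Its difference was -0.22 ± 0.13 (SE), with limma's unadjusted p at 0.126, and -0.06 without dexamethasone replicate 1. It was -0.37 with the authors' scaled values and -0.04 within the second run of slides. NDUFS7, a core subunit with an iron-sulphur cluster, had the highest difference of the complex at 0.01 ± 0.29 (SE). It was at 10.60, 10.91 and 11.52 against 10.36, 11.09 and 11.53, so that both groups spanned nearly the same range. NDUFV2, another core iron-sulphur subunit, differed by -0.17 ± 0.22 (SE). A second NDUFV2 probe, detected on all 6 arrays, gave -0.07 ± 0.15. The others were NDUFS1, a core subunit, at -0.08, and the accessory subunits NDUFB6 at -0.03 and NDUFB3 at 0.00. NDUFB3 had 2 usable dexamethasone values. Its 5 values spanned 0.05.

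Complex II, succinate dehydrogenase, was read only by its membrane anchors. SDHC was at 6.64, 6.73 and 6.82 in the dexamethasone stallions and at 6.52, 6.60 and 6.78 in the controls. SDHD was at 7.80, 8.15 and 8.38 against 7.93, 7.96 and 8.15. Both sets of groups overlapped. The differences were 0.10 ± 0.10 for SDHC and 0.10 ± 0.14 for SDHD (SE). SDHC differed by 0.21 with background subtraction and by 0.04 without control replicate 1. For SDHD the difference was 0.25 when dexamethasone replicate 1 was left out and -0.04 when dexamethasone replicate 3 was.

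Complex III held both the highest difference of the 23 genes and one of the lowest. UQCRB, the subunit that binds ubiquinone, was at 8.57, 9.03 and 8.77 in the dexamethasone stallions and at 8.49, 8.65 and 8.40 in the controls. The second dexamethasone stallion was the highest, and the first lay below the highest control. The difference was 0.27 ± 0.12 (SE, limma's unadjusted p = 0.0526). It was 0.15 without dexamethasone replicate 2 and 0.39 without dexamethasone replicate 1. The unadjusted p was under 0.05 in 5 of the 18 alternatives with a test. A dimmer UQCRB probe, above background on 1 dexamethasone and 2 control arrays, differed by -0.13 ± 0.11, and the mean of both probes by 0.07.

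CYC1, cytochrome c1, was at 10.69, 10.82 and 10.95 in the dexamethasone stallions against 10.88, 11.10 and 11.07 in the controls. The lowest control lay between the dexamethasone values. Its difference was -0.19 ± 0.10 (SE, limma's unadjusted p = 0.0863), and -0.34 with median scaling of the arrays. UQCRC2, a core protein of the complex, was at 7.53, 7.71 and 7.87 against 7.50, 7.73 and 7.49, with overlapping groups. It differed by 0.13 ± 0.11 (SE), by 0.00 within the first run of slides and by 0.39 within the second. Complex III thus gave values on either side of 0, with no member past the test.

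In complex IV, cytochrome c oxidase, the 7 tested genes ran from -0.17 to 0.22. COX6B1, the somatic form of a subunit on the side of the intermembrane space, was at 9.34, 9.40 and 9.22 in the dexamethasone stallions. In the controls it was at 9.10, 9.06 and 9.13. It was the 1 member of the 23 whose groups did not overlap, where 4.26% of all tested genes lay wholly above and 5.06% wholly below the controls. Mean levels were 9.32 ± 0.09 against 9.10 ± 0.04 (SD, n = 3 each). The difference of 0.22 ± 0.08 (SE), or 1.17-fold, had an unadjusted p of 0.0243 and an adjusted p of 0.999 in limma. It was 0.09 with median scaling of the arrays (limma's unadjusted p = 0.378), 0.17 with the authors' scaled values (0.191) and 0.09 within the second run of slides. The unadjusted p was also above 0.05 without any one of dexamethasone replicate 1 or 2 or control replicate 1 or 2 (0.0518 to 0.0763). It was under 0.05 in 12 of the 18 alternatives with a test.

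COX6B2, the testis form of the same subunit, was above background on all 6 arrays with both of its probes. The brighter probe was at 7.72, 7.83 and 7.66 in the dexamethasone stallions and at 7.80, 7.52 and 7.82 in the controls. The other was at 7.68, 7.54 and 7.54 against 7.56, 7.34 and 7.53. Groups overlapped with either probe. The differences were 0.03 ± 0.10 and 0.11 ± 0.09 (SE), with 95% intervals of -0.21 to 0.26 and -0.10 to 0.32. Under median scaling the brighter probe lay at -0.06.

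Whether the testis and the somatic form moved apart was asked within each array, as the log2 value of COX6B2 minus that of COX6B1. Only the change of this value between stallions can be read, since its level depends on the probes. With the brighter COX6B2 probe it was -1.62, -1.56 and -1.57 in the dexamethasone stallions and -1.30, -1.54 and -1.31 in the controls. The dexamethasone values lay close together and just below the lowest control. The difference was -0.20, at -1.58 ± 0.03 against -1.38 ± 0.14 (SD, n = 3 each), with an exact two-sided permutation p of 0.1, the smallest that 3 against 3 allows. With the other probe it was -0.11 and the groups overlapped (exact two-sided permutation p = 0.3). Within the runs of slides the brighter probe gave -0.17 and -0.26, and the other probe -0.13 and -0.08. COX6B1 alone differed by 0.22 and the brighter COX6B2 probe by 0.03. The -0.20 is thus mostly the COX6B1 difference with its sign turned, and no separate result on the testis form.

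**Figure D3:**
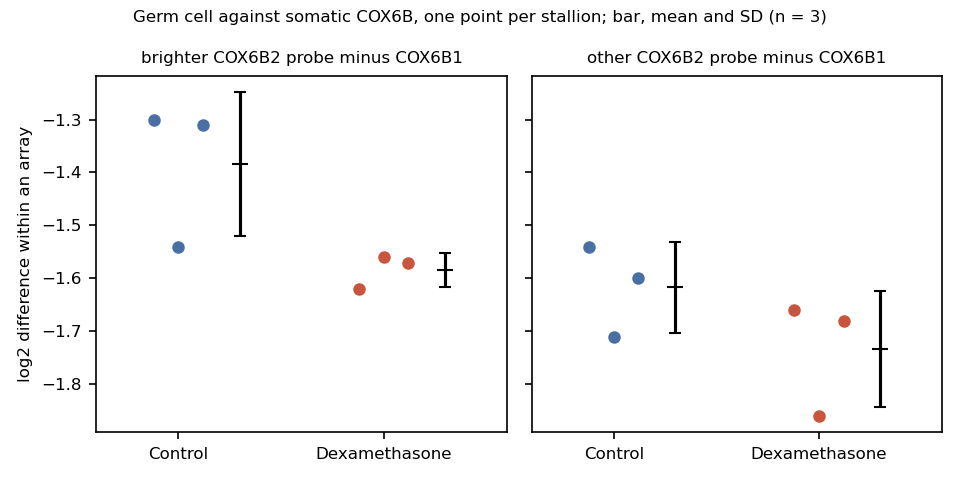
Points give the log2 value of COX6B2 minus that of COX6B1 on each stallion's array, for either COX6B2 probe, with the mean and SD of 3 stallions beside them. With the brighter probe all dexamethasone values lie below -1.54, the lowest control, and with the other probe the groups overlap.

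For the other pair of isoforms neither form could be read. The COX8C probe was at 6.06, 6.24 and 5.81 in the dexamethasone stallions and at 6.12, 6.12 and 6.28 in the controls. The COX8A probe was at 5.83, 6.00 and 6.05 against 5.92, 6.03 and 6.01. Neither was above background on any array. No change of COX8C against COX8A can be given.

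Of the remaining complex IV genes, COX5B, a zinc-binding subunit, was at 10.19, 9.99 and 10.30 against 9.95, 10.04 and 9.94. The second dexamethasone stallion lay among the controls. COX5B differed by 0.18 ± 0.10 (SE), by 0.03 with median scaling and by 0.10 with the authors' scaled values. Without dexamethasone replicate 3 it differed by 0.11, and by 0.37 within the second run of slides. COX6C was at 6.46, 6.62 and 6.41 against 6.77, 6.56 and 6.67, and the groups overlapped by 1 stallion on either side. It differed by -0.17 ± 0.09 (SE), by -0.38 with background subtraction and by -0.40 with the authors' scaled values. COX6A1 at -0.08, COX7A2 at -0.08 and COX4I1 at -0.04 completed the complex. COX4I1, which takes part in the regulation of the enzyme by ATP, had 2 usable dexamethasone values, and with the omitted spot kept its difference was 0.05.

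**Figure D4:**
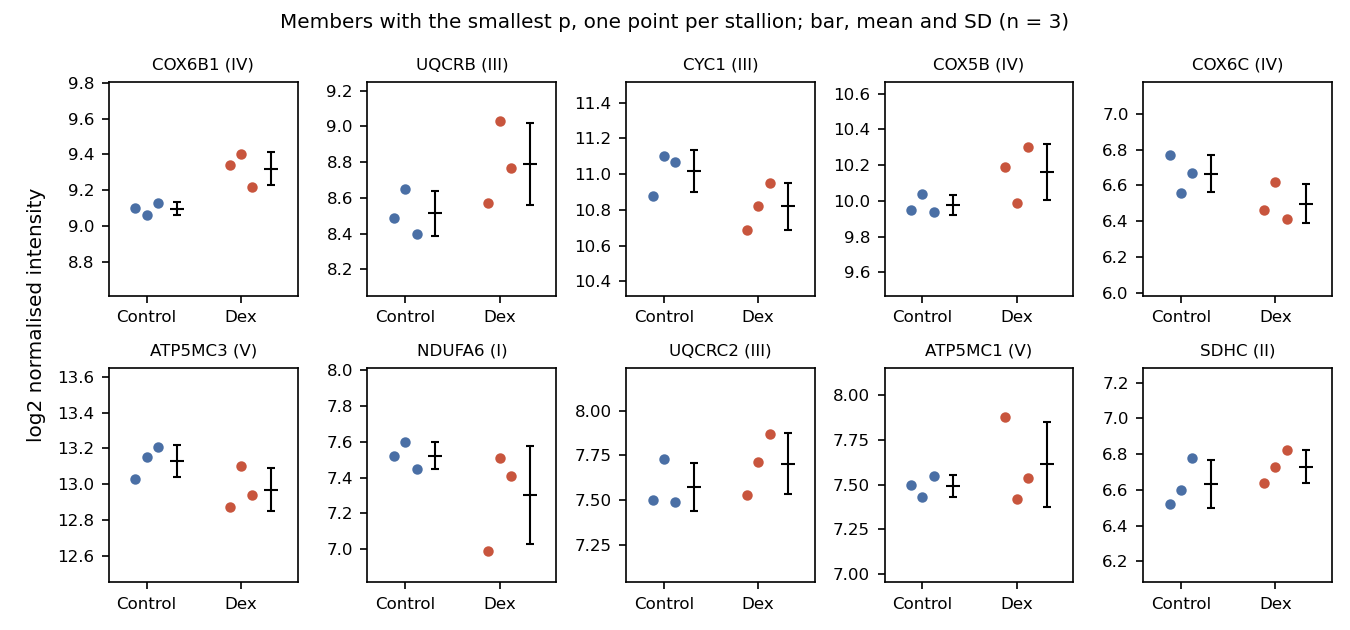
Each panel shows the log2 normalised intensity of 1 gene, 1 point per stallion, with the group mean and SD (n = 3), for the 10 tested genes with the smallest p. Every panel spans 1.2 log2 units. Only in COX6B1 do the groups not overlap, at 9.22 to 9.40 against 9.06 to 9.13.

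In complex V the subunits of the membrane ring, which turns as protons pass, gave the extremes. ATP5MC3 was at 12.87, 13.10 and 12.94 in the dexamethasone stallions and at 13.03, 13.15 and 13.21 in the controls. The second dexamethasone stallion lay above the lowest control. The difference was -0.16 ± 0.09 (SE), or -0.07 with cyclic loess normalization and -0.27 within the second run of slides. ATP5MC1, which encodes the same ring subunit, was at 7.88, 7.42 and 7.54 against 7.50, 7.43 and 7.55. Its difference of 0.12 ± 0.12 (SE) rested on the first dexamethasone stallion and was -0.01 without it. The catalytic head was read by ATP5F1A, the alpha subunit, at -0.01 and ATP5F1B, the beta subunit, at -0.10. ATP5F1C, the gamma subunit of the turning stalk, differed by -0.07 ± 0.09, and its dimmer probe by 0.21 ± 0.15 (SE). This dimmer probe was above background on only 2 dexamethasone and 1 control arrays. It was at 7.03 in the second dexamethasone stallion and at 6.32 to 6.57 in all others. The beta subunit was at 9.94, 10.33 and 10.01 against 10.33, 10.14 and 10.13, with groups that overlapped.

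The slide numbers come only from the names of the deposited scans, and the labels do not say what a run of them stands for. The numbers form 2 runs, of 4 and of 2 arrays, each with both groups. The second holds dexamethasone replicate 3 and control replicate 3, so run and stallion cannot be told apart. In a fit with treatment and run, chosen after the values were seen, 17 of the 23 genes lay higher in the second run, against 52.1% of all genes tested. Their median difference was 0.06, beside 0.01 for all genes tested. At an unadjusted p under 0.05 there were 6, or 26.1%, against 5.66% of all genes tested, and none passed limma's adjusted p, which 0.0189% of all did. For 6 genes every usable value of the second run lay above every one of the first, as for 8.89% of all genes tested. These were NDUFV2, NDUFS7, NDUFS1, SDHC, COX6A1 and COX4I1, the last with 1 usable value in the second run. Whether the subunits differ in this from other lists was not tested. Of 24 assembly factors 15 lay higher, with a median of 0.04, 4 at an unadjusted p under 0.05 and 7 wholly above the first run. Of 17 further subunits 10 lay higher, with a median of 0.01, 1 such p and 3 wholly above. All 5 spermatocyte markers lay higher, with a median of 0.13 and 3 wholly above, and so did all 5 Leydig markers with values in both runs, by 0.04 to 0.36. Of 6 spermatid markers 2 lay higher, with a median of -0.06. The part of these markers in the difference between runs was not tested.

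The 6 genes with the smaller p belonged to 4 complexes. NDUFV2 was at 8.45 and 8.27 in the second run and at 7.51 to 7.96 in the first, a difference of 0.64 ± 0.13 (SE). NDUFS7 was at 11.52 and 11.53 against 10.36 to 11.09, a difference of 0.79 ± 0.18. COX6A1 was at 9.35 and 9.29 against 8.85 to 9.06, a difference of 0.35 ± 0.09. Between dexamethasone and saline the same genes differed by -0.17, 0.01 and -0.08. They were picked for their differences between the runs, so the run cannot be weighed against the treatment with them. ATP5F1A differed between the runs by 0.36 ± 0.14, SDHD by 0.31 ± 0.12 and NDUFS1 by 0.25 ± 0.10 (SE). The second NDUFV2 probe differed between the runs by -0.05 ± 0.17. Within the first run NDUFV2 was lower in both dexamethasone stallions than in both controls, by -0.34, and within the second it was 0.18 higher.

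**Figure D5:**
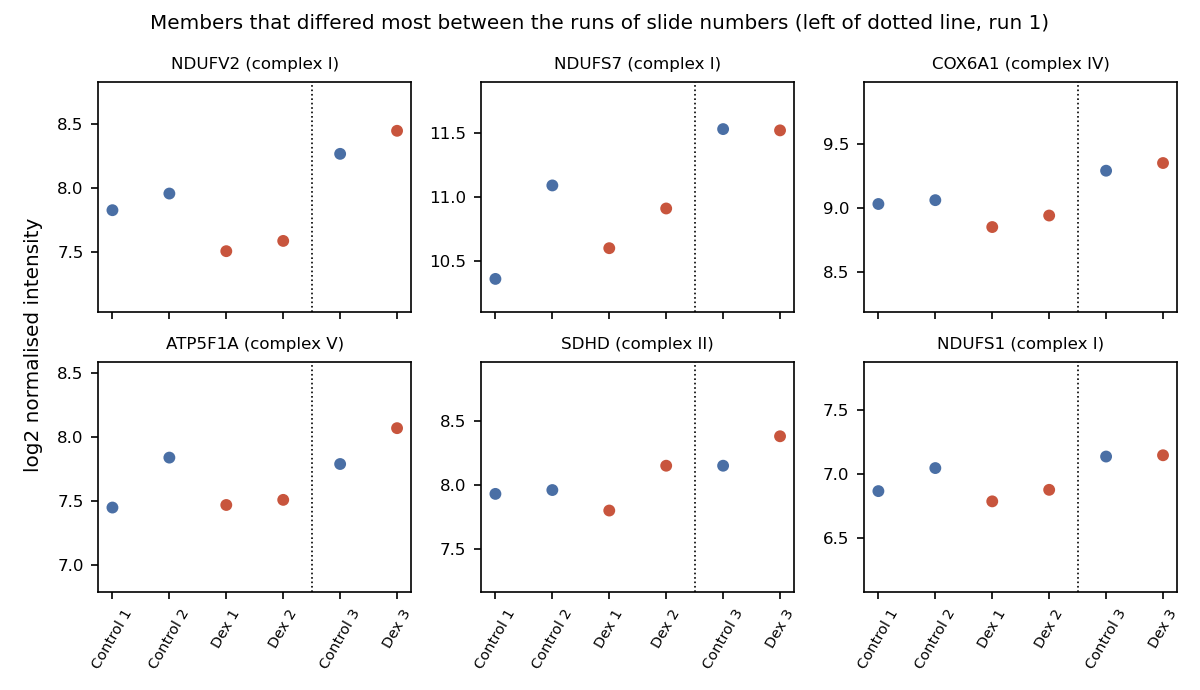
Each panel shows the log2 normalised intensity of 1 gene on the 6 arrays, dexamethasone in red and control in blue, with the second run of slides right of the dotted line. Every panel spans 1.8 log2 units, and in NDUFV2, NDUFS7, COX6A1 and NDUFS1 both arrays of the second run lie above the 4 of the first.

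No other gene of the pathway was called by its brightest probe. Of a list of 34 genes for further subunits, cytochrome c and the ATP synthase inhibitor, 29 had a probe and 17 were tested, 5 above 0 and 12 below, with a median of -0.06 and none at an unadjusted p under 0.05. ATP5F1E, the epsilon subunit of the ATP synthase, was at 13.25, 13.37 and 13.28 in the dexamethasone stallions and at 13.45, 13.43 and 13.49 in the controls. Its groups did not overlap and its difference was -0.16 ± 0.08 (SE). UQCR11 of complex III differed by -0.29 ± 0.16 and NDUFS8 of complex I by -0.31 ± 0.19. The NDUFS8 probe was above background on only 1 dexamethasone and 2 control arrays. COX7B2, a testis form of another complex IV subunit, was above background on all 6 arrays, while COX4I2, COX6A2 and CYCS, the somatic cytochrome c, were above background on none. No probe carried a single symbol of the 13 subunits encoded by mitochondrial DNA.

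Of 48 assembly factors 24 were tested, with 13 above 0, 11 below, a median of 0.01 and 1 at an unadjusted p under 0.05. That was COX17, a copper chaperone of complex IV, at 6.61, 6.57 and 6.58 against 6.35, 6.25 and 6.36. It was above background on 3 of 3 dexamethasone and 1 of 3 control arrays, and so entered the test through the group where it was higher. The measured difference was 0.27 ± 0.08 (SE, limma's adjusted p = 0.999), with controls mostly at background. BCS1L, which builds the iron-sulphur subunit into complex III, differed by -0.19 ± 0.09 with groups that did not overlap, and SDHAF4 of complex II by -0.25 ± 0.14. ATPAF1, which assembles the head of the ATP synthase, carried the 1 probe of the whole table past limma's adjusted p (0.00806). That probe was at 8.97, 10.18 and 9.19 against 6.31, 6.47 and 6.43, above background on 3 of 3 dexamethasone and 1 of 3 control arrays, so it too entered through the higher group. Its measured difference of 3.04 ± 0.25 (SE) is against controls mostly at background. The brighter ATPAF1 probe differed by 0.08 ± 0.13. The beta subunit, ATP5F1B, which it binds, differed by -0.10.

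Regulators of mitochondrial genes, substrate supply and carriers were also near 0. Of 16 regulators 8 were tested, with a median of -0.02. YY1, a transcription factor, differed by -0.18 ± 0.11 (SE), GABPB1 by -0.10 ± 0.08 and PPRC1 by -0.07 ± 0.09. NRF1 and PPARGC1A were above background on no array. Of 22 genes of the citrate cycle and pyruvate dehydrogenase 8 were tested, with a median of -0.04. SUCLG2 differed by 0.25 ± 0.17, PDK3 by 0.21 ± 0.15 and PDK1 by -0.12 ± 0.13. Of 8 carriers and channels 5 were tested, with a median of -0.01. SLC25A4, an ADP/ATP carrier, differed by 0.18 ± 0.11, VDAC2 by -0.08 ± 0.09 and the phosphate carrier SLC25A3 by -0.08 ± 0.11. SLC25A31, the testis form of the ADP/ATP carrier, was above background on all 6 arrays. None of the tested genes of these 3 lists had an unadjusted p under 0.05 in limma's fit.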

How the data were processed

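The files the authors deposited hold, per spot, linear intensity (mean, background and their difference), a scaled intensity, a quality flag and a signal strength. From the values, the deposited scaled intensity is the background-subtracted intensity over 1 constant per array, and the series' value table repeats it. Per the file headers, the signal strength is a score, which equals spot mean over spot noise. It was not used. The scanner software, and how flags were set, is not given in the sources used here.

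Flag M marks spots without a value (353 to 610 on each array), and spots flagged C, I or P (320 to 1189) were set to missing. A probe was above background where its flag held none of L, M, C, I and P. A spot set to missing for its flag thus counted as not above background, whatever its signal. Intensity was corrected with normexp (offset 50), quantile normalised and taken to log2 after leaving out repeated control probes. Of 53423 probes, 23472 have 1 symbol, 905 several, and 29046 are not listed. limma 3.58.1 in R 4.3.3 compared dexamethasone with control over 24590 probes (two-sided, Benjamini-Hochberg, no covariate), 2258 of them with a missing value. The brightest tested probe stood for a gene. The test was tried on simulated data. Figures used matplotlib 3.10.9 in Python 3.11.15. The number of arrays limits the precision.

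Groups came from the labels. Replicate numbers only name stallions, and follow the order of the samples. Each array is 1 stallion. Members and lists were chosen with earlier results of these data known. Values on every array are given for both isoform pairs, the 10 tested members with the smallest p, the highest and lowest member of each complex, and genes whose probes lay over 0.3 apart. Of other lists the 3 genes with the smallest p are named. Genes named for detection, for the runs of slides or for cell types were chosen after their values were seen, as were ATP5F1B and ATP5F1C. Alternatives were other corrections and normalizations, the authors' values (floor 0.1), background subtraction (floor 1), other filters, flagged spots kept, the mean of probes, trend and robust eBayes, array weights, the run of slides as a block or alone, and each array left out.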

Additional observations from a re-analysis of the deposited data

How the results depend on the processing

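No subunit gene was called under any of the 18 alternatives with a test, and 1 to 4 had an unadjusted p under 0.05, the 4 without dexamethasone replicate 2. The share of all tested genes at such a p is not given for these alternatives, so nothing is read from the counts. The median of the tested subunit genes stayed between -0.10 and 0.02. Its lowest value came with median scaling, where the median of all tested genes was -0.09. With the authors' scaled values that of all tested genes was -0.07. Probes past adjusted p over the whole table numbered 0 under background subtraction, under the filter of all 6 arrays, under trend and robust eBayes and within the first run of slides. The filter of all 6 arrays left out the called ATPAF1 probe, above background on 4 arrays, before the test. That 0 therefore says nothing on this probe. Leaving out single arrays gave 0 to 1, with 0 for control replicate 1 and for control replicate 3. The median was -0.17 for complex IV with the authors' scaled values, and 0.00 and 0.36 for complex III within the first and second run. For complex I it was -0.25 to 0.00 without each array in turn, lowest without dexamethasone replicate 3. COX6B2 against COX6B1 stayed below 0 in the 14 alternatives run, at -0.28 to -0.15. Its exact two-sided permutation p rose from 0.1 to 0.3 with background subtraction and with the authors' scaled values. With the mean of probes it was 0.2, and it stayed at 0.1 with cyclic loess, median scaling and flagged spots kept. The causes were not tested.

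Signs changed in 40 of 428 values of single genes, in 12 of the 23 genes, none of them called. With cyclic loess ATP5F1A was at 0.01 and NDUFB3 at 0.00. With median scaling COX6B2 was at -0.06, NDUFS7 at -0.14 and SDHD at 0.00, where the median of all tested genes was -0.09. With the authors' scaled values COX6B2 was at -0.02 and NDUFS7 at -0.07, where that median was -0.07. Sign changes under these settings thus include a shift of all tested genes. With flagged spots kept COX4I1 was at 0.05 and NDUFB3 at 0.01, with the mean of probes ATP5F1C at 0.07, and with array weights ATP5F1A at 0.04 and NDUFB3 at 0.00. COX4I1 was at 0.04 when the run of slides was a block, and within the first run. Within the second run ATP5F1A was at 0.28, ATP5MC1 at -0.01, COX6A1 at 0.06, COX6B2 at -0.16, NDUFB3 and NDUFB6 at 0.01, NDUFS1 at 0.00, NDUFS7 at -0.01 and NDUFV2 at 0.18. Without each array in turn ATP5F1A ran from -0.20 to 0.10, ATP5MC1 from -0.01 to 0.22, COX6A1 from -0.23 to 0.02, COX6B2 from -0.07 to 0.08, NDUFB6 from -0.10 to 0.07, NDUFS7 from -0.31 to 0.28, NDUFV2 from -0.47 to 0.00, SDHD from -0.04 to 0.25, COX4I1 from -0.12 to 0.04 and NDUFB3 from -0.02 to 0.01. The other 11 genes kept their sign in the alternatives that tested them. No paired analysis was possible because the labels number the stallions singly and pair none of them. The COX8C against COX8A comparison was not run, since neither was above background.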

Other observations

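Of the 12 probes whose annotation names a subunit of the list together with another gene, 4 were above background on 3 or more arrays and 5 on none. They are given no gene here.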
